A study of Mus musculus with 32 samples.

Results

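The genes described here are 8 members of the Nodal, activin and BMP signalling pathways, chosen by symbol from the 51826 genes of the count table: the ligands *Nodal*, *Inhbb* and *Bmp4*, the co-receptor *Tdgf1*, the receptor *Acvr2b*, the secreted antagonists *Lefty1* and *Lefty2*, and the intracellular inhibitor *Smad7*. The 8 genes were chosen with earlier results of these data known. Counts of them set beside shares over all genes are therefore descriptions and do not test the set. All 8 had enough counts to be tested, among 18892 genes tested in all. They were followed through 32 RNA-seq libraries of mouse embryonic stem cells (ESCs) in 11 conditions. The study asked how ESCs leave the naive state, the ground state of the early epiblast, and how loss of the transcription factors ETV5, RBPJ and TCF3 alters that exit.

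NODAL is a secreted ligand of the TGF-beta family. It binds type I and type II activin receptors together with the co-receptor CRIPTO, the product of *Tdgf1*, and the receptors phosphorylate SMAD2 and SMAD3. The *Lefty* genes are classical targets of this signal and encode antagonists that hold it in check. Activin B, a dimer of the *Inhbb* product, uses the same type II receptor (ACVR2B) without needing CRIPTO. BMP4 acts through other receptors and SMAD1, SMAD5 and SMAD9, and SMAD7 blocks receptors of both branches. In the early mouse embryo NODAL maintains the epiblast and patterns it, and BMP4 acts on it from the neighbouring extraembryonic tissue.

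All lines derive from RGd2, an ESC line with a destabilised GFP reporter knocked into *Rex1*, so the controls carry that allele too. RGd2 was sampled in 2i, which is N2B27 medium with the MEK inhibitor PD0325901 and the GSK3 inhibitor CHIR99021 (CH). It was also sampled after 5 passages in 2i (2ip5), after 2 passages in N2B27 with CH alone (CHp2), and after 16 h (N16h) or 72 h (N72h) in N2B27 without inhibitors. Rbpj-KO and Etv5-KO cells were sampled in 2i and at N16h. Cells lacking *Etv5* and *Rbpj* (ER-dKO) were sampled after 5 passages in CH (CHp5), and cells lacking *Etv5*, *Rbpj* and *Tcf3* (ETR-tKO) after 5 passages in N2B27 (Np5). Every condition had 3 libraries except Etv5-KO N16h, which had 2. That follows the sample labels, whereas the study's methods name RGd2 N16h as the smaller group. Mutant libraries of a condition came from different clonal lines, whereas each RGd2 condition had 2 libraries of the parental line and 1 of a clonal line made from it. The ids of ETR-tKO replicates 14 and 15 name the same starting clone, (Tc1), so these libraries are not fully independent. They were closer to each other (chi-square per gene 5.18) than to replicate 13 (24.9 and 29.6). ER-dKO replicates 11 and 12, whose ids name no shared clone, were about as close (5.75), so the chi-square does not itself show dependence. The spread within RGd2 is therefore mostly that between cultures of a single line, and p-values against RGd2 rest partly on it. The 2i and N16h cells of RGd2, Rbpj-KO and Etv5-KO had been expanded in CH with the cytokine LIF and then kept in 2i for 48 h before the sampled condition, so 2i and 2ip5 differ in history.

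The libraries held 5986857 to 71439411 gene counts, with a median of 29940141. The shallowest was the clonal RGd2 library in 2i (replicate 33), which also stood apart from the parental libraries in *Smad7* and *Lefty2*. The targeted genes were low in the mutant libraries with 1 exception, although transcripts remained. Mean normalised counts were 2241 for *Etv5* in Etv5-KO 2i against 15475 in RGd2 2i, 1097 for *Rbpj* in Rbpj-KO 2i against 4469, and 85.4 for *Tcf7l1* (the annotation's symbol for *Tcf3*) in ETR-tKO against 516 in RGd2 2ip5. The exception was the library labelled ER-dKO replicate 12, with 3489 for *Rbpj* against 1138 and 1307 in the others and 2830.2 to 3385 in RGd2 2ip5. The pluripotency genes *Pou5f1*, *Sox2*, *Utf1* and *Sall4* were on in every condition, with summed levels of 478 to 992 FPKM (fragments per kilobase of exon, scaled to the depth of the library). The 8 naive markers summed to 869 to 929 FPKM in RGd2 2i, 357 to 368 at N16h and 55.5 to 59.6 at N72h. In a bulk library, fewer cells expressing a gene and less RNA per cell cannot be told apart.

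*Nodal* lies at chr10:61417972-61425338 (GRCm38/mm10, plus strand), *Inhbb* at chr1:119415465-119422248 (minus), *Bmp4* at chr14:46383520-46390669 (minus) and *Tdgf1* at chr9:110939603-110946158 (minus). *Acvr2b* lies at chr9:119402118-119434995 (plus). *Lefty2* (chr1:180893108-180899103) and *Lefty1* (chr1:180935022-180938400) are neighbours on the plus strand. The counts are summed over the exons of each gene, UTRs included. RefSeq promoters (GRCm38.p6) matched 5 of the 8 genes and not *Lefty1*, *Lefty2* or *Smad7*. The 250 bases before the start are shown for the 3 ligands and the co-receptor, through which these signals begin. Capitals mark a match to a searched motif.
Nodal (chr10:61417722-61417971, plus strand): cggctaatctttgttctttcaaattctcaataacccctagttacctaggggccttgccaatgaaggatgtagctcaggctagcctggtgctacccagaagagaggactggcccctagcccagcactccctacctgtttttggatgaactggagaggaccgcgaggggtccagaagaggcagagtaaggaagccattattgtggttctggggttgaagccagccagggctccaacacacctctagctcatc
Inhbb (chr1:119422249-119422498, minus strand): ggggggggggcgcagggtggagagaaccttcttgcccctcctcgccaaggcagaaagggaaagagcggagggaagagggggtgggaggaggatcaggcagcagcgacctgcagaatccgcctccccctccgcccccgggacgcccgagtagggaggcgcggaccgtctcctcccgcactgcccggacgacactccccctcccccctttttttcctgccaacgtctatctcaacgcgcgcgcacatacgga
Bmp4 (chr14:46390670-46390919, minus strand): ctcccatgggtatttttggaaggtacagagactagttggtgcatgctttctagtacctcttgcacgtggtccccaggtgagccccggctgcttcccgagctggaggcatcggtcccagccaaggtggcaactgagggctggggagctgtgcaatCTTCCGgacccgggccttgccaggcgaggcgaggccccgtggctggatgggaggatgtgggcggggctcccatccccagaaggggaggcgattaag
Tdgf1 (chr9:110946159-110946408, minus strand): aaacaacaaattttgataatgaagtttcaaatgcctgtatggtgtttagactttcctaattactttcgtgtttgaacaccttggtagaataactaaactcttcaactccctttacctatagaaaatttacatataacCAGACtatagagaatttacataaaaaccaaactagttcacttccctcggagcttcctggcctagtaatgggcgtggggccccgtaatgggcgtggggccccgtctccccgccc

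Motifs were searched on both strands in the 5 windows of 250 bases. The core ETS letters CGGAAG, recognised by the family that includes ETV5, were found once, in *Bmp4* on the opposite strand at -96 to -91 from the start. 13.6% of the 32851 promoters in the table hold them. The SMAD letters CAGAC were found in *Tdgf1* at -113 to -109 and in *Acvr2b* on the opposite strand at -233 to -229, and 42.2% of all promoters hold them. The RBPJ letters TGGGAA (in 21.6% of promoters), the TCF/LEF letters CTTTGA (13.8%) and the FOXH1 letters AATCCACA (0.718%) were in none of these 5 windows. The motifs do not overlap each other in these windows, and a match is a description of letters, not of binding.

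*Lefty1* and *Lefty2* are close paralogs, and their counts are reported with that in view. The authors counted uniquely mapped reads only, so a read that fits both genes equally well counts for neither. *Tdgf1* has a processed pseudogene, *Tdgf1-ps1*, whose counts were 2.47 to 4.6% of those of *Tdgf1* in every library.

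*Smad7* lies at chr18:75367529-75395935 on the plus strand. Per length, *Lefty2*, *Tdgf1* and *Lefty1* reached the highest levels of the 8. *Lefty2* peaked at 260.2 ± 9.55 FPKM (SD, n = 3) in RGd2 2ip5, *Tdgf1* at 160.4 ± 4.01 in Rbpj-KO N16h and *Lefty1* at 146 ± 17.4 in RGd2 CHp2. *Nodal* (51.4 ± 2.21 in RGd2 2ip5) and *Smad7* (27.2 ± 2.75 in RGd2 2ip5) were intermediate. *Bmp4* (13.5 ± 1.65 in ER-dKO CHp5), *Acvr2b* (12.9 ± 0.183 in RGd2 N72h) and *Inhbb* (5.9 ± 1.42 in RGd2 N16h) were lowest. With FPKM scaled by the spike-ins, *Nodal* instead peaked in ETR-tKO, at 44.2 against 40.6 in 2ip5, *Smad7* in Rbpj-KO 2i, at 23.6, and *Inhbb* in Etv5-KO N16h, at 5.68, while *Acvr2b* had 10.6 in both RGd2 N72h and ETR-tKO. By condition means, *Inhbb* stayed under 1 FPKM in all conditions but the 3 at N16h, and *Bmp4* only in Etv5-KO 2i. All other members were above 1 FPKM in every library. Values below are counts normalised to the ERCC spike-ins, synthetic RNAs of known amount, and compare conditions for 1 gene at a time.

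**Figure D1:**
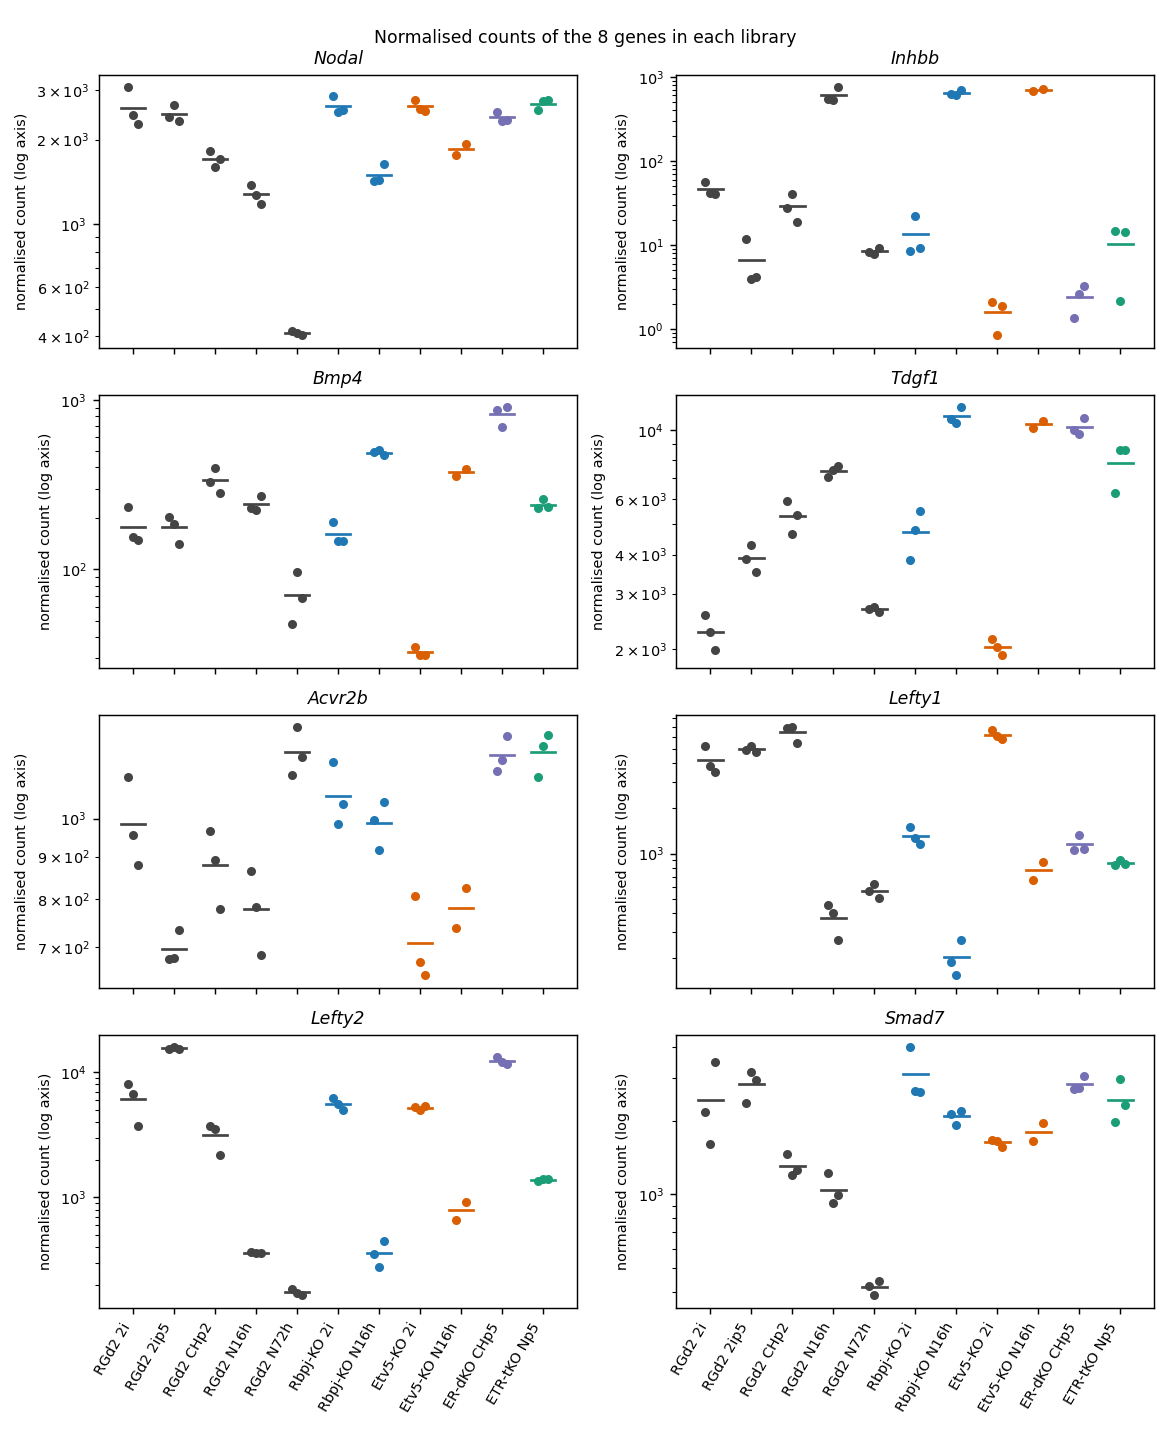
Normalised count (log axis, scale differs by panel) of each gene in each of the 32 libraries (points), with the condition mean as a bar. Grey marks RGd2, blue Rbpj-KO, orange Etv5-KO, purple ER-dKO and green ETR-tKO. *Inhbb* is at 523 to 758 in the RGd2 N16h libraries and at most 56.4 in every library that is not N16h.

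The first 16 h without inhibitors changed most of the 8 genes, and in both directions. Both antagonists and *Smad7* fell with *Nodal*, while the activin subunit *Inhbb* and the co-receptor *Tdgf1* rose. A gene was called changed at an adjusted p under 0.05 (edgeR's quasi-likelihood test, Benjamini-Hochberg over all genes) with a mean of at least 1 FPKM in either group. Between RGd2 N16h and 2i, 2 members rose and 5 fell, with 46% of all genes called, 8.63% as higher and 37.4% as lower. *Inhbb*, 1 of the 2 risers, reached 1 FPKM only at N16h (5.9 FPKM, against 0.383 in 2i). The percentages, like every median over all genes here and below, are of tested genes with a mean of at least 1 FPKM in a compared group. The members' median was -0.69 (log2), against -0.23 over all genes. That second value depends on the scaling. With edgeR's TMM factors, which take most genes as stable, it was 0.0034, and 48.5% of all calls were higher in place of 18.8%. Each change is therefore also given relative to the median gene.

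Normalised counts of *Nodal* were 3077, 2449.9 and 2273 in the 2i libraries and 1378, 1268 and 1184 at N16h. All N16h libraries lay below all 2i libraries (log2 fold change -1.03 ± 0.10 (SE), -0.81 relative to the median gene, adjusted p = 1.02e-10). *Inhbb* was at 56.4, 42 and 40.4 in 2i and 548, 523 and 758 at N16h. This gene for the beta B subunit of activin and inhibin had the steepest rise of the 8 (log2 fold change 3.67 ± 0.25 (SE), 3.90 relative to the median gene, adjusted p = 1.78e-15). *Bmp4* was at 232, 155 and 149 in 2i and 231, 223 and 272 at N16h. The groups overlapped and *Bmp4* was not called (log2 fold change 0.39 ± 0.18 (SE), 0.62 relative to the median gene, adjusted p = 0.0795). Without replicate 31 of RGd2 2i it was, at 0.65 (adjusted p = 0.0105), and with TMM it was too, at 0.65 (adjusted p = 0.00117).

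*Tdgf1* was at 2569.6, 2256 and 1987 in 2i and 7064, 7455 and 7646 at N16h. The groups were far apart (log2 fold change 1.70 ± 0.12 (SE), 1.92 relative to the median gene, adjusted p = 1.36e-14). *Acvr2b*, a type II receptor for activins and NODAL, was at 1121, 956 and 880.2 and 865, 783 and 685. Its fall was small (log2 fold change -0.35 ± 0.11 (SE), -0.12 relative to the median gene, adjusted p = 0.0135), and it was not called with TMM, at -0.12 (adjusted p = 0.206), without replicate 31 of 2i, at -0.25 (adjusted p = 0.121), or without replicate 24 of N16h, at -0.27 (adjusted p = 0.101).

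*Lefty1* was at 5215, 3860.1 and 3525 in 2i and 455, 403 and 265 at N16h (log2 fold change -3.48 ± 0.17 (SE), -3.26 relative to the median gene, adjusted p = 1.35e-19). *Lefty2* went from 8081, 6700.4 and 3715 to 363, 361 and 358 (log2 fold change -4.10 ± 0.19 (SE), -3.88 relative to the median gene, adjusted p = 3.96e-20). Both antagonists fell by more than any other member, and the 3 N16h libraries were close together for *Lefty2* although the 2i libraries were not. *Smad7* was at 2176, 1611 and 3480.5 in 2i and 1219.5, 927 and 991 at N16h. It fell (log2 fold change -1.19 ± 0.18 (SE), -0.96 relative to the median gene, adjusted p = 6.26e-07), with the clonal replicate 33 highest in 2i.

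By 72 h, the means of *Nodal*, *Bmp4*, *Smad7* and *Lefty2* were at their lowest of the 11 conditions, except that *Bmp4* was lower still in Etv5-KO 2i. Against RGd2 2ip5, 1 member rose and 6 fell (57.1% of all genes called, 34.2% as higher and 22.9% as lower), with a members' median of -1.96 against 0.092 for all genes. The members' median includes *Inhbb*, which was under 1 FPKM in both groups. *Nodal* was at 2406, 2657 and 2337 in 2ip5 and 419, 412 and 404 at N72h (log2 fold change -2.58 ± 0.11 (SE), -2.68 relative to the median gene, adjusted p = 4.41e-22). *Bmp4* was at 205, 185 and 141 and 47.7, 96.8 and 67.6 (log2 fold change -1.34 ± 0.20 (SE), -1.43 relative to the median gene, adjusted p = 4.56e-07). Neither ligand's groups overlapped. *Inhbb*, at 11.8, 3.94 and 4.11 in 2ip5 and 8.3, 7.81 and 9.14 at N72h, held 3 to 15 counts per library and was not called (log2 fold change 0.60 ± 0.56 (SE), 0.51 relative to the median gene, adjusted p = 0.393).

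*Tdgf1* was at 3862, 4291 and 3526 in 2ip5 and 2681, 2717 and 2619 at N72h (log2 fold change -0.54 ± 0.12 (SE), -0.64 relative to the median gene, adjusted p = 0.000223). *Acvr2b* was the only member to rise, from 676, 678 and 733 to 1128, 1289.8 and 1188 (log2 fold change 0.79 ± 0.12 (SE), 0.69 relative to the median gene, adjusted p = 3.08e-07). Receptor and co-receptor thus differed in direction between N72h and 2ip5, and the antagonists fell with the ligands *Nodal* and *Bmp4*. *Lefty1* was at 4942, 5254 and 4779.8 and 562, 629 and 508 (log2 fold change -3.15 ± 0.17 (SE), -3.24 relative to the median gene, adjusted p = 5.05e-19). *Lefty2* had the widest gap of any member in any comparison within RGd2, from 15431, 15873 and 15307 to 186, 173 and 165 (log2 fold change -6.48 ± 0.22 (SE), -6.57 relative to the median gene, adjusted p = 2.74e-25). *Smad7* was at 2368, 3157 and 2939.8 and 422, 387 and 445 (log2 fold change -2.75 ± 0.19 (SE), -2.84 relative to the median gene, adjusted p = 6.36e-16).

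Set side by side, *Lefty2* was higher in 2ip5 (mean 15537) than in 2i (mean 6165), and *Inhbb* lower (6.61 and 46.3). *Tdgf1* was also higher in 2ip5 (means 3893 and 2271) and *Acvr2b* lower (696 and 986). 2i and 2ip5 differ in culture history, so the 16 h and 72 h comparisons have different baselines. The N72h libraries of *Tdgf1*, at 2619 to 2717, lay below every 2ip5 library but above every 2i library (1987 to 2570). Those of *Acvr2b* lay above every library of both.

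Directly between N72h and N16h, 2 members rose and 6 fell (60.9% of all genes called, 31.3% as higher and 29.6% as lower). The rise of *Inhbb* at 16 h was gone by 72 h (log2 fold change -6.13 ± 0.30 (SE), adjusted p = 3.57e-20). Here too, *Inhbb* reached 1 FPKM only at N16h, with 0.0837 FPKM at N72h. *Tdgf1* (-1.47 ± 0.12, adjusted p = 2.37e-13) and *Bmp4* (-1.81 ± 0.19, adjusted p = 1.59e-10) were also lower than at 16 h. *Nodal* (-1.63 ± 0.11, adjusted p = 3.88e-16), *Smad7* (-1.32 ± 0.18, adjusted p = 6.44e-08) and *Lefty2* (-1.05 ± 0.19, adjusted p = 1.70e-05) fell further. *Acvr2b* (0.63 ± 0.11, adjusted p = 1.09e-05) and *Lefty1* (0.58 ± 0.16, adjusted p = 0.0028) were higher at 72 h. At 72 h the paralogous antagonists thus stood on opposite sides of their N16h levels.

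Markers of cell state and of other cell types moved with the 72 h samples. The formative list (*Fgf5*, *Pou3f1*, *Otx2*, *Lef1*, *Dnmt3a*, *Dnmt3b*, *Sox3*) summed to 530 to 543 FPKM at N72h against 37.1 to 41.0 in 2ip5, with 6 of 7 genes higher. The neural list (*Sox1*, *Pax6*, *Nes*) summed to 44.2 to 50.3 FPKM at N72h against 3.74 to 4.33 in 2ip5, with 1 of 3 genes higher. The primitive endoderm list summed to 5.35 to 15.9 against 0.537 to 0.861, with 3 of 7 higher, and the fibroblast list to 5.53 to 6.48 against 0.368 to 1.16, with 1 of 4 higher. The trophoblast list was lower, at 1.27 to 1.31 against 19.7 to 26.6, with 3 of 4 lower, as was the mesendoderm list, at 0.67 to 0.96 against 8.84 to 10.1, with 2 of 4 lower. None of the genes of these lists was at 0 in every N72h library. Their part in the results above was not tested. Of all calls between N72h and 2ip5, 59.9% were higher, and 48.8% with TMM.

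Culture in CH alone for 2 passages, which removes the MEK inhibitor and keeps the GSK3 inhibitor, gave another pattern. CHp2 and 2ip5 differ in medium and in passage number together (2 and 5 passages), which cannot be told apart. Against 2ip5, 3 members rose and 3 fell (42.2% of all genes called, 28.6% as higher and 13.6% as lower), and *Lefty1* stayed high while *Lefty2* fell. *Nodal* was at 1819, 1603 and 1711 in CHp2 (log2 fold change -0.53 ± 0.10 (SE), -0.65 relative to the median gene, adjusted p = 6.52e-05). *Bmp4* was at 329.7, 394 and 284, above every 2ip5 library (log2 fold change 0.95 ± 0.18 (SE), 0.83 relative to the median gene, adjusted p = 5.20e-05). *Inhbb*, at 27.7, 40.1 and 18.7, was also above every 2ip5 library (adjusted p = 9.91e-05) but stayed under 1 FPKM and so was not called.

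*Tdgf1* was at 5937, 4659 and 5360.4 (log2 fold change 0.45 ± 0.12 (SE), 0.33 relative to the median gene, adjusted p = 0.00259) and *Acvr2b* at 966, 891 and 777 (log2 fold change 0.33 ± 0.12 (SE), 0.21 relative to the median gene, adjusted p = 0.0228). Both rises were small, and that of *Acvr2b* was not called with TMM (0.15, adjusted p = 0.132) or on leaving out any 1 of replicates 1 and 2 of 2ip5 and 4 and 5 of CHp2, where its values ran from 0.26 without replicate 4 to 0.32 without replicate 5. *Lefty1* was at 6922, 6983 and 5439 and missed the threshold (log2 fold change 0.37 ± 0.15 (SE), 0.25 relative to the median gene, adjusted p = 0.0542). It was called without replicate 6 of CHp2, at 0.48 (adjusted p = 0.0234), and with the cell line (parental or clonal) as a block, at 0.36 (adjusted p = 0.0363). *Lefty2* was at 3736, 3531 and 2179 (log2 fold change -2.30 ± 0.18 (SE), -2.43 relative to the median gene, adjusted p = 7.43e-14), and *Smad7* at 1461, 1205 and 1263 (log2 fold change -1.11 ± 0.18 (SE), -1.23 relative to the median gene, adjusted p = 1.98e-06). The 4 mesendoderm markers summed to 69.9 to 73.4 FPKM in CHp2 against 8.84 to 10.1 in 2ip5, with 1 of 4 higher and none at 0. The naive list summed to 275 to 309 against 733 to 781, with 8 of 8 lower, the formative list to 139 to 162 against 37.1 to 41.0, with 7 of 7 higher, and the neural list to 10.2 to 11.05 against 3.74 to 4.33, with 1 of 3 higher. Their part in these values was not tested. Of all calls, 67.8% were higher, and 43.6% with TMM.

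**Figure D2:**
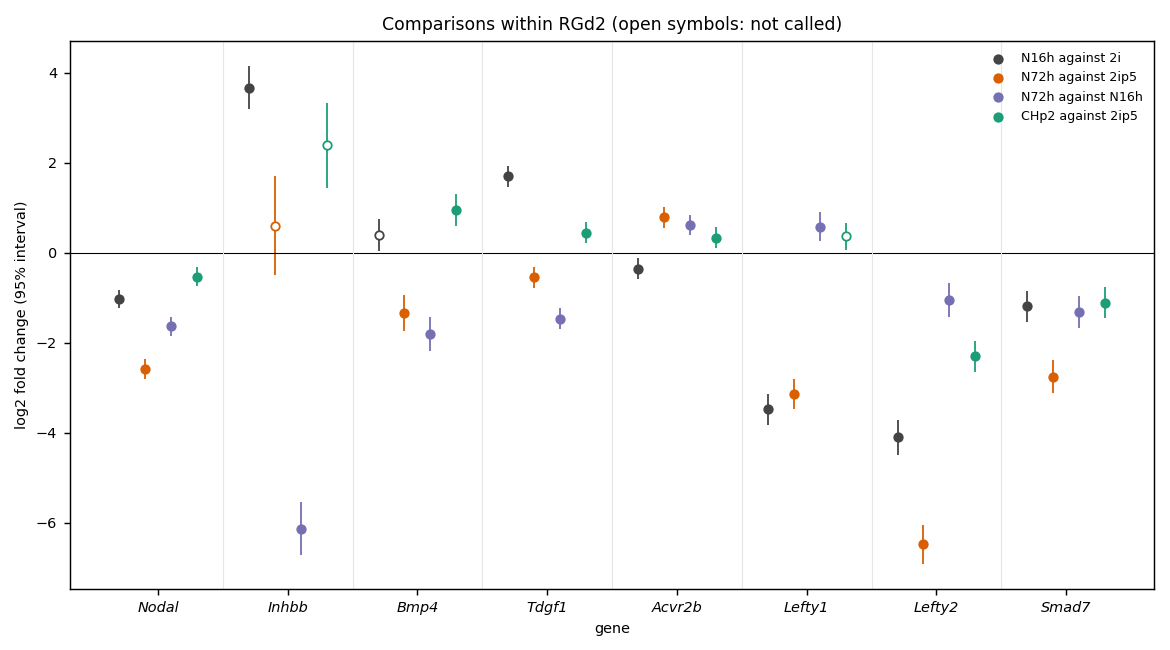
Log2 fold change (y axis, with 95% interval) of each gene in the 4 comparisons within RGd2. Filled symbols are called genes. *Lefty2* lies at -6.48 for N72h against 2ip5, and *Inhbb* at 3.67 for N16h against 2i and -6.13 for N72h against N16h.

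In 2i, cells without RBPJ, the DNA-binding partner of NOTCH, had less *Lefty1* and more *Tdgf1* than RGd2. Against RGd2 2i, 1 member rose and 1 fell in Rbpj-KO 2i, with 11.4% of all genes called, 5.24% as higher and 6.12% as lower. *Lefty1* was at 1513, 1279 and 1158, below every RGd2 2i library (log2 fold change -1.68 ± 0.16 (SE), adjusted p = 2.75e-10). *Tdgf1* was at 3844, 4786 and 5530.1, above every RGd2 2i library (log2 fold change 1.05 ± 0.12 (SE), adjusted p = 2.78e-08). *Lefty2*, the paralog, was at 6169, 5618 and 4968 and overlapped RGd2 (log2 fold change -0.15 ± 0.17 (SE), adjusted p = 0.676). *Smad7* was at 3998, 2658 and 2618 and overlapped as well (log2 fold change 0.37 ± 0.17 (SE), adjusted p = 0.199). Without the shallow clonal library (replicate 33) of RGd2 2i, 4 members were called in place of 2, *Smad7* being higher at 0.70 (adjusted p = 0.00118) and *Lefty2* lower at -0.41 (adjusted p = 0.0444). Of all calls, 46.1% were higher, and 60.2% with TMM.

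The other members in Rbpj-KO 2i overlapped RGd2 except *Inhbb*. *Nodal* was at 2864, 2511 and 2540.2, *Bmp4* at 191, 148 and 148 and *Acvr2b* at 1169.9, 985 and 1041. *Inhbb* was at 8.42, 22.4 and 9.25, below every RGd2 2i library (adjusted p = 0.000299), and under 1 FPKM in both groups.

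At N16h, 4 members were higher and 1 lower in Rbpj-KO than in RGd2 (22.2% of all genes called, 18.8% as higher and 3.41% as lower). *Bmp4* was at 491, 503 and 471 (log2 fold change 1.02 ± 0.17 (SE), 0.88 relative to the median gene, adjusted p = 1.43e-05). *Smad7* was at 2122, 1928 and 2199 (log2 fold change 0.99 ± 0.17 (SE), 0.85 relative to the median gene, adjusted p = 3.32e-05). *Tdgf1* was at 10822, 10553 and 11843 (log2 fold change 0.58 ± 0.12 (SE), 0.44 relative to the median gene, adjusted p = 0.000304). All 3 were above every RGd2 N16h library, *Bmp4* and *Smad7* by about the same factor. *Acvr2b*, at 997, 916 and 1047, was higher by little (log2 fold change 0.34 ± 0.11 (SE), 0.20 relative to the median gene, adjusted p = 0.0296). It was not called with TMM, at 0.19 (adjusted p = 0.079), nor on leaving out any 1 of RGd2 replicates 23 and 24 and Rbpj-KO replicates 19 and 21, where it ran from 0.26 without replicate 24 to 0.35 without replicate 23.

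*Lefty1* remained lower, at 190.5, 154 and 266 (log2 fold change -0.89 ± 0.18 (SE), -1.03 relative to the median gene, adjusted p = 0.000216), although its highest library just exceeded the lowest of RGd2. *Nodal* was at 1428, 1443 and 1635 (log2 fold change 0.23 ± 0.10 (SE), 0.091 relative to the median gene, adjusted p = 0.118), *Lefty2* at 355, 280.1 and 450.4 and *Inhbb* at 629, 615 and 694, and none of these 3 was called. Of all calls, 84.6% were higher, and 54.2% with TMM. The primitive endoderm list reached 10.3 FPKM in 1 Rbpj-KO library at N16h, against 0.708 to 2.27 in RGd2 N16h, with 1 of 7 genes higher. In 2i it reached 8.2 FPKM in 1 Rbpj-KO library, against 0.547 to 2.56 in RGd2 2i, with 0 of 7 genes higher. Both libraries came from the same clonal line. The neural list summed to 19.5 to 21.4 FPKM in Rbpj-KO N16h against 3.27 to 4.38 in RGd2, with 3 of 3 higher, and the naive list to 518 to 571, with 6 of 8 higher. The formative list summed to 86.9 to 93.4 FPKM against 162 to 202 in RGd2 N16h, with 5 of 7 lower. Their part was not tested.

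In 2i, cells without the ETS factor ETV5 had far less *Bmp4* than RGd2, and almost no *Inhbb* counts. Against RGd2 2i, 1 member rose and 3 fell (34% of all genes called, 6.14% as higher and 27.9% as lower). *Bmp4* was at 34.8, 31.2 and 31.5 in the Etv5-KO 2i libraries (log2 fold change -2.49 ± 0.21 (SE), -2.29 relative to the median gene, adjusted p = 3.13e-12), below every other library of the series. *Inhbb* held 3, 1 and 3 counts in these libraries, against 63, 55 and 10 in RGd2 2i. The rate was 28.8 times higher in RGd2 2i (95% exact interval 13.6 to 73, counting error only). Both groups were under 1 FPKM, so *Inhbb* was not called. Low *Inhbb* was not particular to Etv5-KO, as RGd2 2ip5, also cultured in 2i, held 5, 3 and 4 counts. Mean normalised counts were 46.3 in RGd2 2i, 6.61 in RGd2 2ip5 and 1.61 in Etv5-KO 2i.

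*Lefty1* was at 6717, 6063 and 5825 in Etv5-KO 2i, above every RGd2 2i library (log2 fold change 0.56 ± 0.15 (SE), 0.75 relative to the median gene, adjusted p = 0.00553). *Acvr2b*, at 806, 672 and 647, was lower (log2 fold change -0.49 ± 0.11 (SE), -0.29 relative to the median gene, adjusted p = 0.00128). *Smad7* was at 1669, 1661 and 1563, and its fall (log2 fold change -0.55 ± 0.17 (SE), -0.35 relative to the median gene, adjusted p = 0.0153) was not called with TMM, at -0.33 (adjusted p = 0.192), without replicate 33 of RGd2 2i, at -0.21 (adjusted p = 0.273), or without replicate 27 of Etv5-KO 2i, at -0.52 (adjusted p = 0.0627). Fitted on the compared libraries alone, *Acvr2b* (-0.48, adjusted p = 0.0827) and *Smad7* (-0.56, adjusted p = 0.0533) were both not called, which leaves 2 members. *Nodal* (2775, 2559 and 2533), *Tdgf1* (2149, 2022 and 1908) and *Lefty2* (5235, 4962 and 5389) overlapped RGd2 and were not called. With TMM *Nodal* was called higher, at 0.24 (adjusted p = 0.0019), and without replicate 33 *Lefty2* was called lower, at -0.51 (adjusted p = 0.00388). Of all calls in this comparison, 18% were higher, and 60.7% with TMM.

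By N16h, mean levels in Etv5-KO were at or above those of RGd2 for all 8 genes, and 6 members were higher and 0 lower (32.5% of all genes called, 29.3% as higher and 3.24% as lower). *Bmp4* was at 356 and 392 (log2 fold change 0.63 ± 0.18 (SE), 0.40 relative to the median gene, adjusted p = 0.00891) and *Inhbb* at 678 and 723, within the RGd2 range. *Lefty1* (669 and 884) and *Lefty2* (659.5 and 916) were both above every RGd2 library (log2 fold change 1.04 ± 0.18 (SE), 0.81 relative to the median gene, adjusted p = 1.63e-05 and log2 fold change 1.13 ± 0.20 (SE), 0.90 relative to the median gene, adjusted p = 2.38e-05). *Nodal* was at 1765 and 1935 (log2 fold change 0.53 ± 0.11 (SE), 0.31 relative to the median gene, adjusted p = 0.000374).

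*Tdgf1*, at 10139.6 and 10689 (log2 fold change 0.50 ± 0.13 (SE), 0.27 relative to the median gene, adjusted p = 0.0041), and *Smad7*, at 1656 and 1958 (log2 fold change 0.79 ± 0.19 (SE), 0.56 relative to the median gene, adjusted p = 0.0016), were higher too. *Acvr2b*, at 737 and 825, and *Inhbb* were not called (0.0050 ± 0.13, adjusted p = 0.985, and 0.20 ± 0.22, adjusted p = 0.545). With TMM, *Bmp4* and *Tdgf1* were not called, *Acvr2b* was called lower at -0.23 (adjusted p = 0.0404), and 56.7% of all calls were higher in place of 90%. Without replicate 18 of Etv5-KO N16h, which leaves a single library, 3 members were called in place of 6, *Bmp4* (0.56, adjusted p = 0.12), *Tdgf1* (0.46, adjusted p = 0.0665) and *Smad7* (0.66, adjusted p = 0.0571) being lost. The naive markers summed to 683 to 736 FPKM, with 8 of 8 higher than in RGd2 N16h. The formative list summed to 94.1 to 103 FPKM against 162 to 202 in RGd2 N16h, with 6 of 7 lower. The part of these markers was not tested.

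Within each mutant, *Inhbb* and *Tdgf1* were higher and *Nodal* and both *Lefty* genes lower at N16h than in 2i, as in RGd2, and *Bmp4* rose as well. In Rbpj-KO, 3 members rose and 4 fell (27.9% of all genes called, 11.6% as higher and 16.3% as lower), and in Etv5-KO 3 rose and 3 fell (40.7% of all genes called, 31.3% as higher and 9.47% as lower). In both mutants *Inhbb* reached 1 FPKM only at N16h, with 0.116 FPKM in Rbpj-KO 2i and 0.0149 in Etv5-KO 2i. The same held for *Bmp4* in Etv5-KO, with 0.576 FPKM in 2i. *Inhbb* rose in Rbpj-KO (5.49 ± 0.29, adjusted p = 1.39e-18). In Etv5-KO it went from 7 counts over the 3 2i libraries to 1915 over the 2 N16h libraries, a ratio of 421 at equal spike-in depth (95% exact interval 204 to 1049.6, counting error only). *Tdgf1* rose in Rbpj-KO (1.23 ± 0.12, adjusted p = 1.04e-10) and Etv5-KO (log2 fold change 2.36 ± 0.13 (SE), 2.17 relative to the median gene, adjusted p = 6.85e-18). *Lefty1* fell in Rbpj-KO (-2.69 ± 0.18, adjusted p = 1.66e-15) and Etv5-KO (log2 fold change -3.00 ± 0.19 (SE), -3.19 relative to the median gene, adjusted p = 6.26e-16), as did *Lefty2* (-3.95 ± 0.20, adjusted p = 3.03e-19, and log2 fold change -2.72 ± 0.21 (SE), -2.92 relative to the median gene, adjusted p = 1.36e-13).

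*Bmp4* rose in Rbpj-KO (1.61 ± 0.18, adjusted p = 2.11e-09) and in Etv5-KO (log2 fold change 3.52 ± 0.21 (SE), 3.32 relative to the median gene, adjusted p = 5.25e-17). *Nodal* fell in both (-0.81 ± 0.10, adjusted p = 5.27e-08 in Rbpj-KO, log2 fold change -0.50 ± 0.11 (SE), -0.70 relative to the median gene, adjusted p = 0.000561 in Etv5-KO). *Smad7* fell in Rbpj-KO (-0.56 ± 0.17, adjusted p = 0.0129), though not without replicate 28 (-0.34, adjusted p = 0.201) or replicate 20 (-0.51, adjusted p = 0.0635), and was not called in Etv5-KO (log2 fold change 0.15 ± 0.19 (SE), -0.047 relative to the median gene, adjusted p = 0.592). *Acvr2b* was called in neither. Of all calls in Etv5-KO, 76.8% were higher, and 43.6% with TMM.

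The difference between the exit response of a mutant and that of RGd2 was tested directly, as the log2 change of the mutant minus that of RGd2. For Rbpj-KO, 2 members had a higher response and 0 a lower one (4.03% of all genes called, 3.79% as higher and 0.238% as lower). *Bmp4* was one (log2 difference 1.22 ± 0.25 (SE), 1.03 relative to the median gene, adjusted p = 0.00255). The other was *Inhbb* (log2 difference 1.82 ± 0.39 (SE), 1.63 relative to the median gene, adjusted p = 0.00422). *Inhbb* passed the level minimum only through its N16h groups, which were not called different, and its value rests on 2i groups at 0.116 and 0.383 FPKM in Rbpj-KO and RGd2, with 4, 25 and 11 counts in Rbpj-KO, so it repeats the 2i gap that was not called for its level. *Tdgf1* was not called (log2 difference -0.47 ± 0.17 (SE), -0.66 relative to the median gene, adjusted p = 0.137), but was lower with TMM, at -0.69 (adjusted p = 0.00223), and without replicate 28 of Rbpj-KO 2i, at -0.59 (adjusted p = 0.0383). *Lefty1* was close to the threshold (log2 difference 0.80 ± 0.24 (SE), 0.61 relative to the median gene, adjusted p = 0.0528), and was called on leaving out any 1 of replicates 20, 22, 28, 32 and 33, at 0.86 to 0.95, with DESeq2, at 0.80 (adjusted p = 0.0261), and with the cell line as a block, at 0.79 (adjusted p = 0.0222). Without replicate 28 of Rbpj-KO 2i, 5 members were called and without replicate 32 of RGd2 2i, 4 were, *Smad7* among them at 0.85 (adjusted p = 0.0419) and 0.86 (adjusted p = 0.0276). Of all calls, 94.1% were higher, and 63.8% with TMM.

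For Etv5-KO, 7 members had a higher response and 0 a lower one (37.3% of all genes called, 36.7% as higher and 0.531% as lower). The median over all genes was 0.44, and -0.044 with TMM. Of all calls, 98.6% were higher, and 59.5% with TMM. Relative to that median, *Inhbb* and *Bmp4* stood far out (log2 difference 4.95 ± 0.51 (SE), 4.52 relative to the median gene, adjusted p = 1.92e-09, and log2 difference 3.12 ± 0.28 (SE), 2.69 relative to the median gene, adjusted p = 5.35e-11), and the fitted value for *Inhbb* rests on the 7 counts in Etv5-KO 2i. It too passed the level minimum only through N16h, where the groups were not called different, and so repeats the 2i gap between groups under 1 FPKM. *Lefty2* (log2 difference 1.38 ± 0.26 (SE), 0.95 relative to the median gene, adjusted p = 0.000111) and *Smad7* (log2 difference 1.34 ± 0.26 (SE), 0.90 relative to the median gene, adjusted p = 0.000156) followed. These 4 were also called with TMM. *Nodal* (log2 difference 0.53 ± 0.15 (SE), 0.092 relative to the median gene, adjusted p = 0.00921), *Tdgf1* (log2 difference 0.67 ± 0.18 (SE), 0.23 relative to the median gene, adjusted p = 0.00522) and *Acvr2b* (log2 difference 0.49 ± 0.17 (SE), 0.056 relative to the median gene, adjusted p = 0.0282) were not, at 0.052 (adjusted p = 0.789), 0.19 (adjusted p = 0.455) and 0.018 (adjusted p = 0.954). *Acvr2b* was also lost on leaving out any 1 of replicates 18, 24, 26, 27 and 31, at 0.39 to 0.46, and *Nodal* without replicate 18, at 0.46 (adjusted p = 0.0835). *Lefty1* (log2 difference 0.49 ± 0.23 (SE), 0.051 relative to the median gene, adjusted p = 0.113) was called without replicate 33, at 0.59 (adjusted p = 0.032), or 22, at 0.64 (adjusted p = 0.0463).

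**Figure D3:**
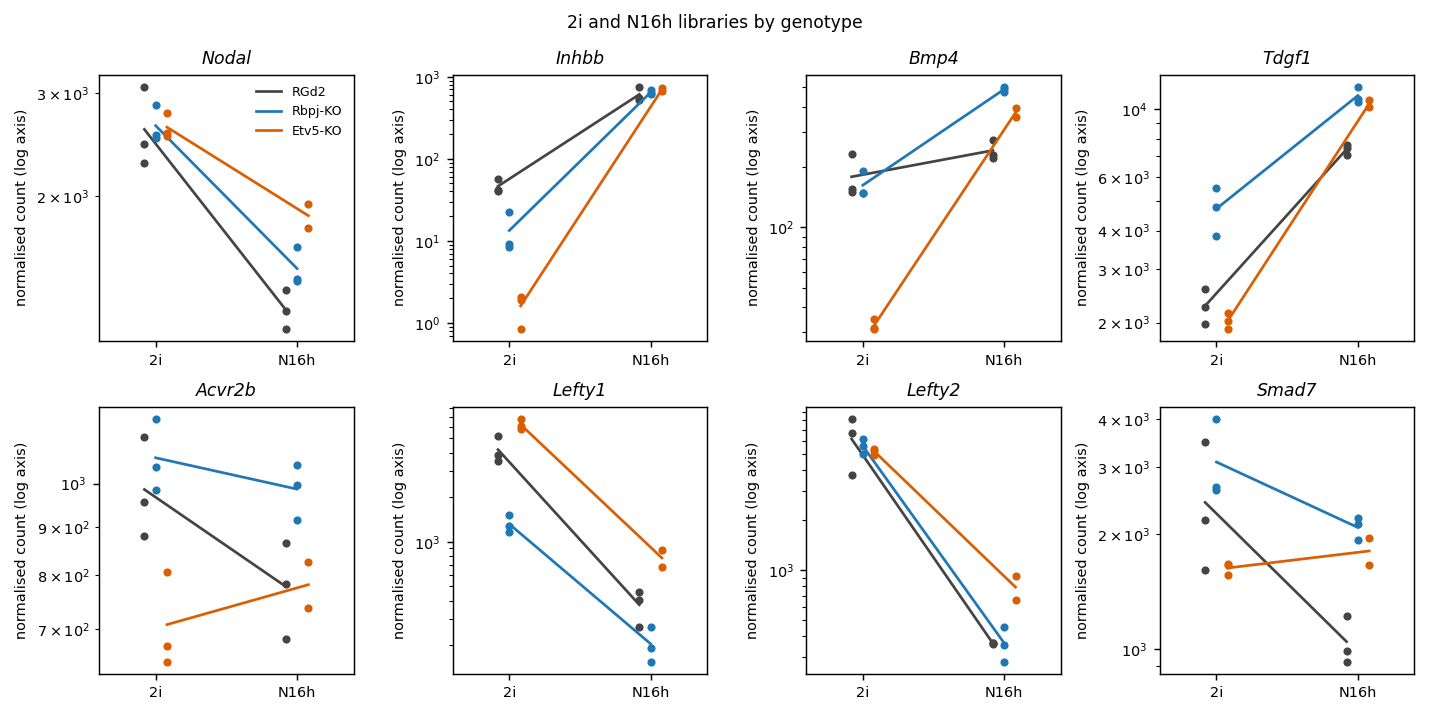
Normalised count (log axis, scale differs by panel) in the 2i and N16h libraries of RGd2 (grey), Rbpj-KO (blue) and Etv5-KO (orange), with lines joining the means. *Bmp4* in Etv5-KO runs from 32.5 to 374, and in RGd2 from 179 to 242.

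ER-dKO cells kept in CH for 5 passages combined high *Bmp4*, *Tdgf1* and *Lefty2* with low *Lefty1*. Against RGd2 in CH for 2 passages, 6 members were higher and 1 lower (49.7% of all genes called, 28.3% as higher and 21.3% as lower). *Bmp4* was at 867, 692 and 907, its highest level of the 11 conditions (log2 fold change 1.28 ± 0.17 (SE), adjusted p = 3.86e-08). *Tdgf1* was at 9963, 9711 and 10883 (log2 fold change 0.94 ± 0.12 (SE), adjusted p = 1.88e-08). *Lefty2* was at 13313, 12125 and 11585 (log2 fold change 1.97 ± 0.17 (SE), adjusted p = 2.40e-12), and *Lefty1* at 1061, 1331 and 1072 (log2 fold change -2.48 ± 0.16 (SE), adjusted p = 3.80e-16). No library of either group overlapped the other for these 4 genes.

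*Nodal* was at 2515, 2333 and 2345 (log2 fold change 0.49 ± 0.10 (SE), adjusted p = 0.000137), *Smad7* at 2704, 2723 and 3042 (log2 fold change 1.11 ± 0.17 (SE), adjusted p = 1.32e-06) and *Acvr2b* at 1141, 1177 and 1257 (log2 fold change 0.44 ± 0.11 (SE), adjusted p = 0.00153). *Inhbb* had 2, 7 and 4 counts, and was under 1 FPKM in both groups. Genotype and passage number differ together here and cannot be told apart. Without replicate 12, whose *Rbpj* was not low, 7 members were again called, and 4 against 2ip5 as with it. Markers of cell state moved with the group: the naive list summed to 778 to 793 FPKM in ER-dKO against 275 to 309 in CHp2, with 8 of 8 genes higher. The formative list summed to 36.2 to 38.0 against 139 to 162, with 5 of 7 lower, and the mesendoderm list to 14.6 to 16.4 against 69.9 to 73.4, with 1 of 4 higher and 1 lower. Their part was not tested.

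Against RGd2 2ip5, ER-dKO had 3 members higher and 1 lower (42.4% of all genes called, 33.9% as higher and 8.43% as lower). The higher ones were *Bmp4* (log2 fold change 2.23 ± 0.18 (SE), 2.02 relative to the median gene, adjusted p = 4.61e-13), *Tdgf1* (log2 fold change 1.39 ± 0.12 (SE), 1.17 relative to the median gene, adjusted p = 4.85e-12) and *Acvr2b* (log2 fold change 0.77 ± 0.11 (SE), 0.56 relative to the median gene, adjusted p = 1.09e-06), and the lower one was *Lefty1* (log2 fold change -2.11 ± 0.16 (SE), -2.32 relative to the median gene, adjusted p = 9.66e-14). *Lefty2* lay below every 2ip5 library and missed the threshold (log2 fold change -0.33 ± 0.17 (SE), -0.55 relative to the median gene, adjusted p = 0.125), but was called with TMM, at -0.50 (adjusted p = 0.00624). *Nodal* was likewise not called, but was lower with TMM, at -0.21 (adjusted p = 0.00547). Of all calls, 80.1% were higher, and 58.5% with TMM.

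ETR-tKO cells, propagated for 5 passages without inhibitors, had *Nodal* and *Smad7* at levels that overlapped those of 2ip5, and both *Lefty* genes below them. Against RGd2 N72h, 6 members were higher and 0 lower (59.1% of all genes called, 35.5% as higher and 23.6% as lower). *Nodal* was at 2543, 2743 and 2763 (log2 fold change 2.70 ± 0.11 (SE), adjusted p = 8.65e-23). *Smad7* was at 1979.9, 2972 and 2312 (log2 fold change 2.53 ± 0.18 (SE), adjusted p = 6.29e-15). *Lefty2* was at 1346, 1413 and 1407 (log2 fold change 2.99 ± 0.20 (SE), adjusted p = 2.47e-16). These 3 had the widest gaps of the 8.

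*Bmp4*, at 230.0, 261 and 233 (log2 fold change 1.81 ± 0.19 (SE), adjusted p = 1.84e-10), *Tdgf1*, at 6281, 8635 and 8609 (log2 fold change 1.55 ± 0.12 (SE), adjusted p = 4.80e-14), and *Lefty1*, at 846, 902 and 849 (log2 fold change 0.62 ± 0.16 (SE), adjusted p = 0.00141), were also higher, with no overlap. *Acvr2b*, at 1123, 1225 and 1260.1, was not called (0.0016 ± 0.11, adjusted p = 0.994), and *Inhbb*, with 24, 2 and 18 counts, was not called. Genotype and time without inhibitors differ together in this comparison. The naive markers summed to 764 to 825 FPKM in ETR-tKO and were higher than at N72h in 8 of 8 genes. The formative list summed to 71.7 to 104 FPKM against 530 to 543 at N72h, with 7 of 7 lower. The part of these markers was not tested.

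Against RGd2 2ip5, 3 members were higher and 2 lower in ETR-tKO (47.3% of all genes called, 37.7% as higher and 9.53% as lower). *Lefty2* (log2 fold change -3.48 ± 0.19 (SE), -3.71 relative to the median gene, adjusted p = 2.01e-18) and *Lefty1* (log2 fold change -2.53 ± 0.16 (SE), -2.76 relative to the median gene, adjusted p = 7.35e-16) were lower. *Tdgf1* (log2 fold change 1.01 ± 0.12 (SE), 0.78 relative to the median gene, adjusted p = 6.90e-09) and *Acvr2b* (log2 fold change 0.79 ± 0.12 (SE), 0.56 relative to the median gene, adjusted p = 5.64e-07) were higher. So was *Bmp4* (log2 fold change 0.47 ± 0.18 (SE), 0.24 relative to the median gene, adjusted p = 0.037), but not with TMM (0.26, adjusted p = 0.203) nor on leaving out any 1 of 2ip5 replicates 2 and 3 and ETR-tKO replicates 14 and 15, where it ran from 0.31 without replicate 3 to 0.52 without replicate 2. *Nodal* (log2 fold change 0.12 ± 0.10 (SE), -0.11 relative to the median gene, adjusted p = 0.364) and *Smad7* (log2 fold change -0.23 ± 0.17 (SE), -0.45 relative to the median gene, adjusted p = 0.309) were not called, although *Smad7* was with TMM, at -0.45 (adjusted p = 0.0434). Of all calls, 79.8% were higher, and 51.9% with TMM. The 2 comparisons with 2ip5 share those control libraries, and in both, genotype and medium differ together and cannot be told apart.

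**Figure D4:**
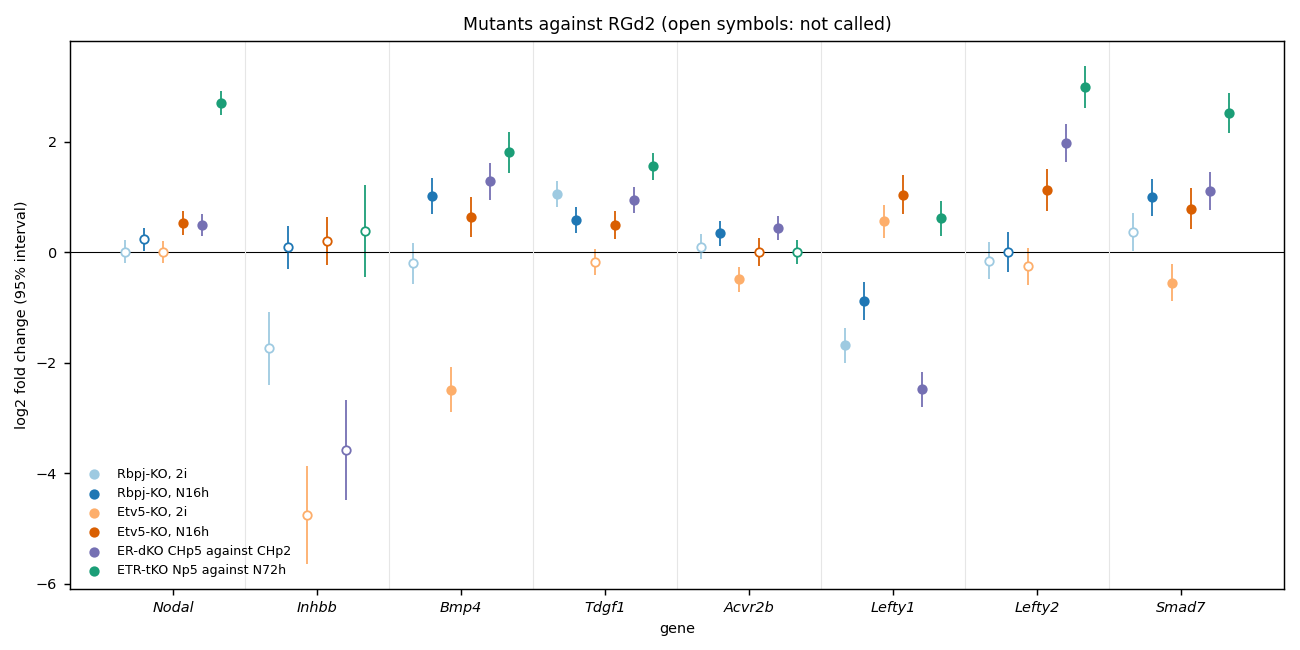
Log2 fold change (y axis, with 95% interval) of each gene in 6 comparisons of a mutant with RGd2. Filled symbols are called genes. *Lefty1* is below 0 in Rbpj-KO and ER-dKO (-1.68 in 2i, -0.89 at N16h and -2.48 in CH). It is above 0 in Etv5-KO and in ETR-tKO against N72h (0.62).

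Ordered by mean normalised count, *Nodal* formed a plateau. ETR-tKO, Rbpj-KO 2i, Etv5-KO 2i, RGd2 2i, RGd2 2ip5 and ER-dKO had means of 2683 to 2397, with each overlapping its neighbour in the order. RGd2 N72h was lowest and overlapped no other condition. *Acvr2b* varied least, from 696 to 1203, and all neighbours in its order overlapped. *Inhbb* varied most, from 1.61 to 701, and its 3 N16h groups overlapped each other and nothing else. *Lefty1* split into RGd2 CHp2, Etv5-KO 2i, RGd2 2ip5 and RGd2 2i at 4200.1 to 6448, and the other 7 conditions at 204 to 1317, with no overlap between the sets.

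Over the 11 condition means (log2), *Nodal* and *Smad7* ran most alike among the 8 genes (Pearson r = 0.92), followed by *Bmp4* and *Tdgf1* (0.86), *Nodal* and *Lefty2* (0.77) and *Lefty1* and *Lefty2* (0.76). *Lefty1* and *Tdgf1* ran most opposite (-0.63). Among all 13324 genes with a sufficient level, *Nodal* was most like *Nr5a2* (0.981), *Klf2* (0.98) and *Tesk2* (0.973), and *Lefty2* most like *Axin2* (0.962), a target of WNT signalling. *Inhbb* was most like *Zfp438* (0.967), *Kbtbd6* (0.963) and *Myc* (0.959), and *Smad7* most like *Triml1* (0.964), *Gjc1* (0.96) and *Qtrt1* (0.957). *Tdgf1* was most like its own pseudogene *Tdgf1-ps1* (0.994), which shares sequence with it. *Bmp4* was most like *Steap1* (0.912), *Acvr2b* like *Camkv* (0.938) and *Lefty1* like *Ap3b2* (0.949). The points share libraries and scaling, and the values describe these 11 conditions only.

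The wider pathway was read from 9 lists with 58 other genes, of which 49 were tested. Their values are log2 fold changes ± SE on the spike-in scale. Shares over all genes stand beside the counts, and their dependence on the scaling, given above, holds for these counts too. The lists were also chosen with earlier results known, so these counts do not test them as sets. At N16h in RGd2, of 29 genes with a mean of at least 1 FPKM, 2 rose and 18 fell (all genes 8.63% as higher and 37.4% as lower). The risers were *Skil* (0.90 ± 0.11, adjusted p = 1.58e-08), a corepressor of SMADs, and *Twsg1* (0.32 ± 0.11, adjusted p = 0.017), a secreted modulator of BMPs. The steepest falls were *Tgfbr3* (-4.45 ± 0.17, adjusted p = 9.81e-23), the betaglycan co-receptor, and *Bmp7* (-2.91 ± 0.21, adjusted p = 2.06e-14). At N72h against 2ip5, of 31 genes with a mean of at least 1 FPKM, 13 rose and 9 fell (all genes 34.2% as higher and 22.9% as lower), *Gdf11* (1.48 ± 0.22, adjusted p = 5.36e-07) and *Skil* (1.05 ± 0.11, adjusted p = 1.78e-10) rising most and *Tgfbr3* (-3.55 ± 0.17, adjusted p = 2.04e-20) and *Pcsk6* (-2.61 ± 0.13, adjusted p = 1.34e-19), a convertase that can process NODAL, falling most. In CHp2, of 31 genes with a mean of at least 1 FPKM, 9 rose and 9 fell (all genes 28.6% as higher and 13.6% as lower), led by *Fst* (3.07 ± 0.26, adjusted p = 8.89e-13), the activin-binding follistatin, and by *Pcsk6* (-1.57 ± 0.13, adjusted p = 6.18e-13).

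Among these other pathway genes, *Fst* had the highest fold change in Rbpj-KO 2i (1.87 ± 0.24, adjusted p = 1.68e-07), Rbpj-KO N16h (1.67 ± 0.25, adjusted p = 2.19e-06) and Etv5-KO N16h (1.98 ± 0.26, adjusted p = 1.71e-07). In Rbpj-KO 2i, of 31 genes with a mean of at least 1 FPKM, 2 rose and 3 fell (all genes 5.24% as higher and 6.12% as lower), and at N16h, of 29, 11 rose and 1 fell (all genes 18.8% as higher and 3.41% as lower). The gene that fell at N16h was *Skil* (-0.52 ± 0.11, adjusted p = 0.000489). In Etv5-KO 2i, of 29 genes with a mean of at least 1 FPKM, 2 rose and 8 fell (all genes 6.14% as higher and 27.9% as lower), and at N16h, of 30, 15 rose and 1 fell (all genes 29.3% as higher and 3.24% as lower), *Skil* falling in both (-1.19 ± 0.11, adjusted p = 6.91e-11 in 2i, -0.80 ± 0.13, adjusted p = 5.00e-06 at N16h). *Pmepa1*, an inhibitor of SMAD signalling, was lower in Etv5-KO 2i (-1.23 ± 0.21, adjusted p = 2.46e-05) and had the steepest difference in exit response among the other pathway genes (2.08 ± 0.31, adjusted p = 2.80e-06).

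In ER-dKO against CHp2, of 32 genes with a mean of at least 1 FPKM, 11 rose and 9 fell (all genes 28.3% as higher and 21.3% as lower). *Pcsk6* rose (2.14 ± 0.13, adjusted p = 6.44e-17), and *Smad6*, the inhibitor of BMP SMADs, fell (-2.19 ± 0.25, adjusted p = 2.22e-09). In ETR-tKO against N72h, of 32 genes with a mean of at least 1 FPKM, 16 rose and 8 fell (all genes 35.5% as higher and 23.6% as lower). *Bmp8a* (3.07 ± 0.31, adjusted p = 4.02e-11) and *Pcsk6* (2.78 ± 0.13, adjusted p = 2.10e-20) rose most, and *Bmp7* (-1.59 ± 0.20, adjusted p = 1.05e-08) fell most. *Bmp8a* passed the level minimum only through ETR-tKO, at 1.71 FPKM, with mean normalised counts of 112 there and 13.2 at N72h. *Bmp7* was also lower in ETR-tKO than in 2ip5 (-2.45 ± 0.20, adjusted p = 7.36e-13), as it was in ER-dKO (-1.34 ± 0.19, adjusted p = 4.11e-07).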

How the data were processed

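By the study's protocol, RNA was depleted of ribosomal RNA, whereas the sample labels give the molecule as polyA RNA. The protocol was followed here. Strand-specific libraries with ERCC spike-ins were sequenced in 32 samples. The deposited values are raw counts of uniquely mapped reads per gene, which the authors obtained from featureCounts. Before that, TopHat2 had placed the reads, trimmed by Trim Galore, on mm10 (GRCm38) and the spike-in sequences. Symbols were matched to 51633 of 51826 gene IDs, and 0 columns were left out.

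Size factors were medians of ratios over the 52 of 92 spike-ins above 0 in every library. All libraries entered 1 edgeR 4.0.16 quasi-likelihood model (R 4.3.3) with a coefficient per condition, after filterByExpr. In a first run this filter preceded the size factors. The order was changed after those results had been seen, and the first order is kept as an alternative. P-values were adjusted by Benjamini-Hochberg over 18892 genes, and a call also needed a mean of at least 1 FPKM, computed from the counts. SEs are the fold change divided by the root of the quasi-likelihood F. The method was tested on simulated data. Samples were grouped by the labelled genotype and culture, which give RGd2 N16h 3 libraries and Etv5-KO N16h 2, although the study's methods state 2 for RGd2 N16h. The 8 genes and the pathway and marker lists were chosen with earlier results of these data known. Other pathway genes are named by rule, up to 2 per direction and comparison, and genes of like pattern up to 3 per gene. Replicates of a group differed beyond sampling noise (chi-square per gene 3.39 to 44.3). Clonal lines pair libraries: deviations from group means correlated at 0.0921 to 0.191 for the 3 Rbpj-KO lines and 0.291 to 0.361 for the RGd2 clone. For the 2 Etv5-KO lines they correlated at 0.02 and 0.109, while a pair of different lines reached 0.0788. With 2 libraries at N16h, the Etv5-KO deviations there mirror each other, so these values cannot show pairing. Alternatives were TMM, gene-based size factors, DESeq2 1.42.0, other filters, fewer libraries and a clonal-line block.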

Additional observations from a re-analysis of the deposited data

Results flagged for a closer look

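The exit response, the log2 change from 2i to N16h, differed between a mutant and RGd2 in 9 tests of the difference itself (edgeR's quasi-likelihood test, adjusted over all genes). Over all genes, 4.03% were called for Rbpj-KO, and 37.3% for Etv5-KO, where 98.6% of calls were higher, and 59.5% with TMM. In Rbpj-KO it was higher by 1.82 for *Inhbb* and 1.22 for *Bmp4*, and both were also called with TMM. In Etv5-KO it was higher by 4.95 for *Inhbb*, 3.12 for *Bmp4*, 1.38 for *Lefty2* and 1.34 for *Smad7*, which were called under both scalings. In both mutants *Inhbb* passed the level minimum only through N16h, where mutant and RGd2 were not called different, so its values repeat a 2i gap between groups under 1 FPKM. The response of Etv5-KO was higher by 0.67 for *Tdgf1*, 0.53 for *Nodal* and 0.49 for *Acvr2b*, which were called with the spike-ins and not with TMM. In the Etv5-KO comparison all genes had a median of 0.44. Groups had at most 3 libraries, so single libraries were not tested as outliers.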

How the results depend on the processing

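DESeq2, the stricter filter and the clonal-line block lost no call of a single gene. Filtering low counts before the spike-in factors were set, an alternative added after the data had been seen, tested 19037 genes and changed no call or sign. With all 8 genes counted, the number called moved by over 1.5 times in these cases: 4 for the exit response of Etv5-KO with TMM and with gene-based size factors, 4 for that of Rbpj-KO without a low-count filter, and 2 for Etv5-KO 2i against RGd2 2i with only the libraries compared, which lost *Acvr2b* and *Smad7* there, *Acvr2b* in RGd2 N16h against 2i (-0.35, adjusted p = 0.164) and *Nodal* and *Acvr2b* in the exit response of Etv5-KO (0.53, adjusted p = 0.0989, and 0.49, adjusted p = 0.132). Leaving out 1 library at a time gave 2 to 4 members for Rbpj-KO 2i against RGd2 2i, 3 to 6 members for Etv5-KO N16h against RGd2 N16h, and 2 to 5 members for the exit response of Rbpj-KO against that of RGd2. Where a group was left with 1 library, it was assumed to vary like the others. Signs turned with TMM to -0.078 for *Inhbb* in Rbpj-KO N16h against RGd2 N16h, -0.16 for *Lefty2* in Rbpj-KO N16h against RGd2 N16h, 0.061 for *Tdgf1* in Etv5-KO 2i against RGd2 2i, -0.041 for *Inhbb* in Etv5-KO N16h against RGd2 N16h, -0.23 for *Acvr2b* in Etv5-KO N16h against RGd2 N16h, -0.096 for *Nodal* in ETR-tKO Np5 against RGd2 2ip5, -0.094 for *Acvr2b* in ETR-tKO Np5 against RGd2 N72h, -0.11 for *Acvr2b* in Etv5-KO N16h against Etv5-KO 2i, -0.11 for *Smad7* in Etv5-KO N16h against Etv5-KO 2i, -0.070 for *Lefty2* in the exit response of Rbpj-KO against that of RGd2. With gene-based size factors they turned to -0.074 for *Inhbb* in Rbpj-KO N16h against RGd2 N16h, -0.15 for *Lefty2* in Rbpj-KO N16h against RGd2 N16h, 0.020 for *Tdgf1* in Etv5-KO 2i against RGd2 2i, -0.044 for *Inhbb* in Etv5-KO N16h against RGd2 N16h, -0.23 for *Acvr2b* in Etv5-KO N16h against RGd2 N16h, -0.11 for *Nodal* in ETR-tKO Np5 against RGd2 2ip5, -0.12 for *Acvr2b* in ETR-tKO Np5 against RGd2 N72h, -0.064 for *Acvr2b* in Etv5-KO N16h against Etv5-KO 2i, -0.063 for *Smad7* in Etv5-KO N16h against Etv5-KO 2i, -0.050 for *Lefty2* in the exit response of Rbpj-KO against that of RGd2. Signs also turned on leaving out 1 library for genes that were not called, whose values ran from -0.069 to 0.15 for *Nodal* in Rbpj-KO 2i against RGd2 2i, from -0.34 to 0.058 for *Bmp4* in Rbpj-KO 2i against RGd2 2i, from -0.41 to 0.085 for *Lefty2* in Rbpj-KO 2i against RGd2 2i, from -0.014 to 0.27 for *Inhbb* in Rbpj-KO N16h against RGd2 N16h, from -0.18 to 0.15 for *Lefty2* in Rbpj-KO N16h against RGd2 N16h, from -0.075 to 0.15 for *Nodal* in Etv5-KO 2i against RGd2 2i, from -0.078 to 0.088 for *Acvr2b* in Etv5-KO N16h against RGd2 N16h, from -0.080 to 0.016 for *Nodal* in ER-dKO CHp5 against RGd2 2ip5, from -0.11 to 0.085 for *Smad7* in ER-dKO CHp5 against RGd2 2ip5, from -0.042 to 0.053 for *Acvr2b* in ETR-tKO Np5 against RGd2 N72h, from -0.080 to 0.41 for *Lefty2* in the exit response of Rbpj-KO against that of RGd2. Over all genes, calls higher and lower went from 605 and 707 to 1252 and 828 with TMM for Rbpj-KO 2i, and from 4499 and 65 to 953 and 649 for the exit response of Etv5-KO. The cause of these changes was not tested. The clonal-line block, fitted without ER-dKO and ETR-tKO, made *Lefty1* called in 2 comparisons (0.36 in CHp2 against 2ip5 and 0.79 in the exit response of Rbpj-KO) and changed no other call. Low counts limit *Inhbb* outside N16h.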
